A study of Mus musculus with 6 samples.

Results

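The genes described are 36 mouse genes of the MYC network and of ribosome biogenesis, chosen by name: Myc, Max, Mxd1 and Mnt, and 32 genes that encode nucleolar ribosome assembly factors or parts of the RNA polymerase I machinery. All 36 were found among the 36706 genes of each deposited table, and all 36 were among the 14011 genes with enough counts to test. Messenger RNA was sequenced from dendritic cells grown out of wild-type mouse bone marrow with the cytokine GM-CSF at 20 ng/mL. The cells got new medium on day 3 and day 5. The sample titles call these cells macrophages, while the other labels call them dendritic cells, the name used here. Cells of 3 libraries received interferon gamma (IFN-γ) together with 4-OI (4-octyl itaconate, an itaconate ester that can enter cells), and cells of the other 3 libraries received IFN-γ alone. Every library therefore came from cells given IFN-γ, and no untreated cells were part of the comparison. The sources used here give no dose or duration of either agent and no age, sex or number of mice. The question was how these genes differed when 4-OI was added.

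MYC is a transcription factor that binds DNA as a pair with MAX, at E-boxes with the letters CACGTG. MXD1 and MNT also pair with MAX, occupy the same sites and repress, so the balance between MYC and these partners sets the activity of many growth genes. Ribosome biogenesis is among the best known MYC programmes: RNA polymerase I copies the ribosomal RNA genes in the nucleolus, guide RNA particles modify the transcript, and assembly factors fold and process it into the small and the large subunit. Myc is high in dividing bone marrow precursors, and dendritic cells are known to use its paralogue Mycl.

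Of the 36 genes, 8 were higher and 8 were lower with 4-OI and 20 did not pass an adjusted p of 0.05 by edgeR's quasi-likelihood test with Benjamini-Hochberg adjustment over all tested genes. That is 22.2% in each direction, against 22.7% of all tested genes higher and 25.4% lower, so the share of these genes that changed was near the background. Myc itself fell 5.40-fold. The median log2 fold change was 0.020 over the 36 genes and -0.0082 over all tested genes. Myc and Mxd1, which were lower, and Gnl3, which was higher, changed by 2-fold or more. In 12 of the 36 genes every library with 4-OI lay above every library with IFN-γ alone, and in 10 every one lay below; over all tested genes these shares were 28.9% and 30.6%. In bulk RNA a lower value can mean fewer cells of a type or less RNA per cell, and these cannot be told apart here.

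The promoters below are shown because MYC and MAX partners bind CACGTG. They are those of the 3 changed MYC network genes with an entry, and of Gnl3 as the largest rise. Rrn3 is shown as the only one of the 30 genes with an entry that held a pair of these motifs. Each runs 5′ to 3′ over 250 bases before and 10 after the start site that RefSeq places on GRCm38.p6, in lower case with CACGTG in capitals.
Max, chr12:76962239-76962498, minus strand: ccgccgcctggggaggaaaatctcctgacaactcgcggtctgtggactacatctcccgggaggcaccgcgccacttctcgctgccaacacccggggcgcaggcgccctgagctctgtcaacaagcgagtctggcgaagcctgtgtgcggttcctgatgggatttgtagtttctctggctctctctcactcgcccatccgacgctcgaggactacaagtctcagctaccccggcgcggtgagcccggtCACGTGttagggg
Mxd1, chr6:86669150-86669409, minus strand: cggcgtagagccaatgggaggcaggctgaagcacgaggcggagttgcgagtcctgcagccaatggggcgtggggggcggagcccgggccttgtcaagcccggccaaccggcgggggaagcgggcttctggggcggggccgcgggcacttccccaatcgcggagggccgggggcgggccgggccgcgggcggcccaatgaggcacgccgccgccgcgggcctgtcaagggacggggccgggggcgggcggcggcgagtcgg
Mnt, chr11:74830674-74830933, plus strand: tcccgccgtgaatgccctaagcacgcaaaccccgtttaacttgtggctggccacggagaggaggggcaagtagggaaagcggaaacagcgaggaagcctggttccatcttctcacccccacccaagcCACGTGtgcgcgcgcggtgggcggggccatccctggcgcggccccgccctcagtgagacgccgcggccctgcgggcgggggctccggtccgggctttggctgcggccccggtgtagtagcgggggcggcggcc
Gnl3, chr14:31019122-31019381, minus strand: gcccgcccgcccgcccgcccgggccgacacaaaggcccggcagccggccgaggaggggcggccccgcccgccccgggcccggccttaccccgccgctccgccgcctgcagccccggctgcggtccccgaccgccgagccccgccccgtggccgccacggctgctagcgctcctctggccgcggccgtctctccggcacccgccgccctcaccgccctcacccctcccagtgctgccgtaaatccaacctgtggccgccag
Rrn3, chr16:13780449-13780708, plus strand: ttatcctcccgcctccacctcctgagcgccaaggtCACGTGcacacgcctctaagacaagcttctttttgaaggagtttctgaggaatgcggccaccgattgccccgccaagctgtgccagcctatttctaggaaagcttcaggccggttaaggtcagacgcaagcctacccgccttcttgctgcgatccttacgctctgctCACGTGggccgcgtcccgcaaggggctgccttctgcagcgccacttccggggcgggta
In Max the motif spans the start site that RefSeq gives, beginning at base -3. In GENCODE, another transcript annotation, no Max transcript held bases 21 to 45 after this start. Each of the other printed promoters had at least 1 such transcript. In Mnt the motif begins at base -123, and in Rrn3 at bases -215 and -48. Mxd1 and Gnl3, the largest fall and rise among the genes with a promoter entry, had no CACGTG in these letters.

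RefSeq promoters of 300 bases, 250 before and 50 after the start, matched 30 of the 36 genes by symbol. Myc, Fbl, Npm1, Bop1, Rrp12 and Rrs1 had no entry. CACGTG, a palindrome that reads the same on both strands, was present for 8 of these 30 genes, or 26.7%. The same share was 8.09% of the 27025 genes of the promoter table and 11.4% of the 11088 tested genes with an entry. It was 20% of 85 other ribosome biogenesis and RNA polymerase I genes. These promoters were also rich in CG pairs, with a median of 26 CG pairs over the members' promoters against 19 over those of tested genes and 7 over the table. CACGTG holds a CG pair itself, so the shares and the CG content are not separate. The 8 genes were Max, Mnt, Nop2, Pes1, Wdr43, Utp4, Utp20 and Rrn3. Of the genes with an entry, the motif was found in 1 of 6 that were lower with 4-OI, in 2 of 8 that were higher and in 5 of 16 that did not pass the test. A match describes the letters in these windows and does not show that MYC or MAX was bound.

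Myc had 8.14, 7.56 and 6.71 CPM (counts scaled to library size with TMM factors) in the 3 libraries with 4-OI, against 40.3, 41.0 and 39.4 CPM in the 3 with IFN-γ alone. The libraries of each group lay close together and the groups did not overlap. The log2 fold change was -2.43 ± 0.10 (SE; edgeR adjusted p = 2.31e-06). IFN-γ replicate 1, which stood apart from the other libraries of its group in many genes, had the middle Myc value of its group, and without it the log2 fold change was -2.44. Myc lies on chromosome 15 at 61857190 to 61862210, plus strand, in the coordinates of the deposited tables.

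Mxd1, which encodes a MAX partner that represses MYC targets and is linked to terminal differentiation of myeloid cells, had 168, 174 and 170.1 CPM with 4-OI, against 370.2, 344 and 343 CPM with IFN-γ alone. It fell 2.06-fold, with a log2 fold change of -1.05 ± 0.08 (SE; edgeR adjusted p = 2.43e-05), so Myc and this antagonist were both lower. Max, the shared partner, had 55.0, 57.2 and 62.2 CPM with 4-OI, against 66.3, 73.9 and 71.7 CPM with IFN-γ alone. Its fall was small, at a log2 fold change of -0.28 ± 0.09 (SE; edgeR adjusted p = 0.0297), and was not called without 4-OI replicate 1 or 2, without IFN-γ replicate 2 or 3 or with no filter on low counts. Mnt, the other MAX partner that represses, went the opposite way: it had 81.2, 80.0 and 73.6 CPM with 4-OI, against 64.1, 53.3 and 56.4 CPM with IFN-γ alone. The groups did not overlap, and the log2 fold change was 0.43 ± 0.10 (SE; edgeR adjusted p = 0.00706).

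**Figure D1:**
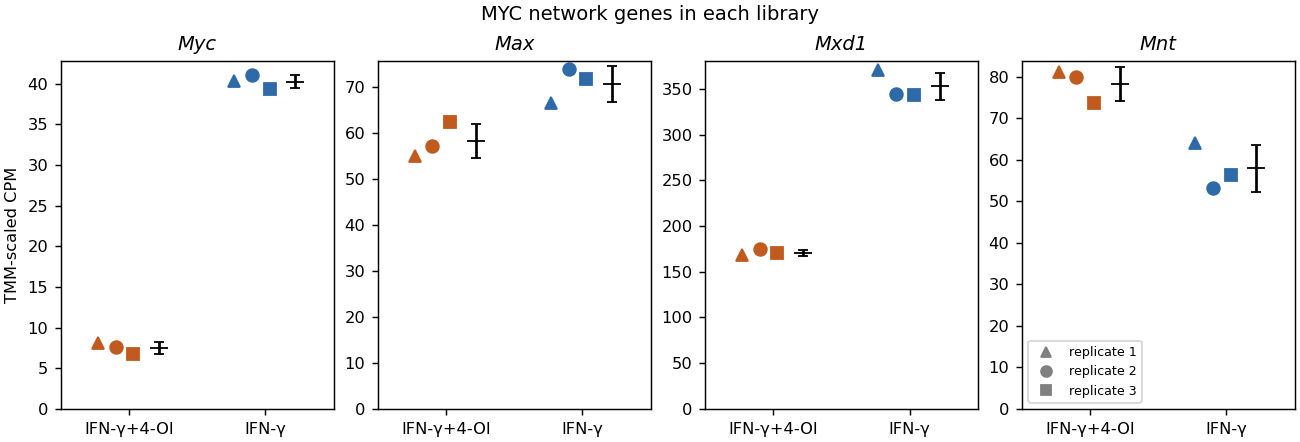
TMM-scaled CPM (y axis, from 0) of Myc, Max, Mxd1 and Mnt in each library; symbols mark the replicate number, and the bar beside each group is the mean ± SD over 3 libraries. Myc lies between 6.71 and 8.14 CPM with 4-OI and between 39.4 and 41.0 CPM with IFN-γ alone, and Mnt is the only one of these genes that is higher with 4-OI.

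Among 12 tested genes of a wider list of the MYC, MAX and MLX network, 4 were lower and 0 were higher by edgeR. That is 33.3% lower, against 25.4% of all tested genes lower and 22.7% higher. The count higher was 0 also at an unadjusted p under 0.05, by limma-voom and by DESeq2. Mycl had 1.30, 1.09 and 1.32 CPM with 4-OI, against 3.05, 3.16 and 3.01 CPM with IFN-γ alone, a log2 fold change of -1.32 ± 0.17 (SE; edgeR adjusted p = 0.000382). Mxd3, a MAX partner expressed in dividing cells, had 0.217, 0.145 and 0.288 CPM with 4-OI, against 1.27, 1.39 and 1.61 CPM with IFN-γ alone. These levels are low: 3 counts correspond to 0.103 to 0.153 CPM in these libraries. Ruvbl2, an ATPase that binds MYC, averaged 30.1 ± 1.07 CPM with 4-OI and 41.1 ± 6.41 CPM with IFN-γ alone (SD, n = 3 each; edgeR adjusted p = 0.0174). The fourth, Mxi1, a relative of MXD1 named after its value was seen to complete the count, was 1.20-fold lower. The count of 4 lower genes was 2 without 4-OI replicate 1 or 2 or without IFN-γ replicate 2 or 3, and without IFN-γ replicate 1 there were 2 higher genes.

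The 5 genes outside the 36 whose profile over the 6 libraries was most like that of Myc were Il2ra, Kif23, Xaf1, Ccnb1 and Klrk1. They were ranked by the root mean square difference of centred log2 CPM, among 8670 tested genes with a mean of at least 10 CPM. Their differences were 0.086 to 0.116, and their log2 fold changes were -2.47 to -2.40. With libraries close together in each group, this ranking mostly picks genes with a fold change like that of Myc, so that likeness follows from the ranking. Il2ra, the IL-2 receptor alpha chain, averaged 47.3 CPM with 4-OI and 258 CPM with IFN-γ alone. Kif23 and Ccnb1 act in cell division, and Ccnb1 averaged 5.19 CPM with 4-OI and 28.0 CPM with IFN-γ alone.

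The RNA polymerase I machinery makes the ribosomal RNA precursor. Of its 4 genes, Polr1a, Polr1b and Rrn3 did not pass the test. Ubtf, which encodes a DNA-binding factor that keeps ribosomal RNA genes open, was higher. That is 25% higher, against 22.7% of all tested genes. Ubtf had 69.7, 73.0 and 64.4 CPM with 4-OI, against 46.8, 53.1 and 52.6 CPM with IFN-γ alone. The lowest library with 4-OI lay above the highest with IFN-γ alone, and the log2 fold change was 0.44 ± 0.09 (SE; edgeR adjusted p = 0.00489). Rrn3, which brings the polymerase to its promoters, had 38.0, 37.8 and 38.5 CPM with 4-OI, against 38.7, 36.7 and 35.0 CPM with IFN-γ alone. Its groups overlapped, and the interval of 1.96 SE on either side of its log2 fold change ran from -0.11 to 0.21. Polr1a and Polr1b, the largest subunits of the enzyme, had log2 fold changes of -0.11 ± 0.13 and 0.00 ± 0.12 (SE), and IFN-γ replicate 1 was the highest library of its group for both.

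Box C/D particles carry guide RNAs that direct methylation of ribosomal RNA. None of their 5 genes passed edgeR's test in either direction, and 0 passed at an unadjusted p under 0.05, by limma-voom or by DESeq2. Over all tested genes, 22.7% were higher and 25.4% lower. Fbl, the methyltransferase fibrillarin, had 51.8, 54.7 and 59.3 CPM with 4-OI, against 44.6, 67.9 and 65.1 CPM with IFN-γ alone. Replicate 1 was below, and replicates 2 and 3 were above, all libraries with 4-OI, so the groups overlapped through 1 library. Nop56, a core protein beside fibrillarin, showed the same arrangement, and for Nop58, the other core protein, replicate 1 lay among the libraries with 4-OI. Without IFN-γ replicate 1 the log2 fold changes were -0.27 for Fbl, -0.21 for Nop56 and -0.35 for Nop58, and all 3 genes were then called lower. The edgeR adjusted p was 0.0117 for Fbl, 0.0420 for Nop56 and 0.0180 for Nop58 without that library, and 0.637, 0.449 and 0.134 with it. The others were Nolc1, a chaperone of these particles, at a log2 fold change of -0.18 with groups that did not overlap, and Rrp9, a protein of the U3 particle, at 0.19 with groups that did.

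Box H/ACA particles direct pseudouridylation, and 2 of their 3 genes were lower. Over all tested genes 25.4% were lower, and 3 genes are too few to set against that share. Gar1 had 9.50, 9.30 and 11.2 CPM with 4-OI, against 12.2, 16.6 and 15.2 CPM with IFN-γ alone, a log2 fold change of -0.55 ± 0.14 (SE; edgeR adjusted p = 0.0129). Dkc1, the pseudouridine synthase dyskerin, had 6.78, 7.93 and 8.44 CPM with 4-OI, against 9.42, 9.74 and 10.1 CPM with IFN-γ alone, a log2 fold change of -0.33 ± 0.11 (SE; edgeR adjusted p = 0.0368). Neither gene's groups overlapped, yet neither was called without 4-OI replicate 1 or without 4-OI replicate 2, and Dkc1 was not called without IFN-γ replicate 2 or 3, by DESeq2 or with no filter on low counts either. Nhp2, their partner, averaged 31.4 ± 2.42 CPM with 4-OI (SD, n = 3) and had 26.7, 35.9 and 33.5 CPM with IFN-γ alone; its groups overlapped and it did not pass.

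The small subunit processome is the particle in which the precursor of the small subunit folds. Its 7 genes went both ways, with 3 higher, 2 lower and 2 not called. That is 42.9% higher and 28.6% lower, against 22.7% and 25.4% of all tested genes, though 7 genes are few for such shares. The counts higher and lower were the same without each library in turn. Scaled by total counts alone, 1 was higher and 3 were lower. Nop14 had 46.7, 49.8 and 49.3 CPM with 4-OI, against 32.3, 33.2 and 34.7 CPM with IFN-γ alone, a log2 fold change of 0.54 ± 0.08 (SE; edgeR adjusted p = 0.000833). Wdr75 and Utp4, which belong to the subcomplex that loads first on the precursor, were also higher, with log2 fold changes of 0.47 ± 0.10 and 0.38 ± 0.09 (SE; edgeR adjusted p = 0.00616 and 0.00806). Their partner Wdr43 averaged 34.8 ± 0.324 CPM with 4-OI and 36.4 ± 0.369 CPM with IFN-γ alone (SD, n = 3 each). These groups did not overlap, but they differed little, and the log2 fold change of -0.06 had an interval of -0.21 to 0.08.

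Noc4l, whose yeast counterpart binds Nop14 directly, was lower while Nop14 was higher. It had 10.6, 10.7 and 10.9 CPM with 4-OI, against 14.6, 15.3 and 14.6 CPM with IFN-γ alone, a log2 fold change of -0.46 ± 0.08 (SE; edgeR adjusted p = 0.00248). Rrp12, which in yeast acts in the maturation and export of both subunits, had the largest fall of the 32 ribosome biogenesis genes. Its values were 3.36, 4.60 and 4.45 CPM with 4-OI, against 7.56, 8.28 and 7.51 CPM with IFN-γ alone, and the log2 fold change was -0.90 ± 0.14 (SE; edgeR adjusted p = 0.00118). Even its lowest library held 62 counts. Utp20, a large scaffold protein, did not pass, and its IFN-γ replicate 1 at 19.6 CPM stood far above replicates 2 and 3 at 13.7 and 13.6 CPM.

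Of the 10 genes of large subunit assembly 3 were higher and 0 were lower. That is 30% higher and 0% lower, against 22.7% and 25.4% of all tested genes. At an unadjusted p under 0.05 in edgeR, 4 were higher and 0 lower. By limma-voom and by DESeq2, 3 were higher and 0 lower. Gnl3, the nucleolar GTPase nucleostemin that is known from stem and dividing cells, had 56.4, 55.5 and 61.3 CPM with 4-OI, against 25.3, 29.9 and 30.9 CPM with IFN-γ alone. The groups lay far apart, the fold change was 2.01, and the log2 fold change was 1.01 ± 0.10 (SE; edgeR adjusted p = 0.000125). Without IFN-γ replicate 1, the lowest library, the log2 fold change of Gnl3 was 0.92. In the deposited coordinates Gnl3 lies on chromosome 14 at 30734390 to 30741088, minus strand. There 9 of its exon bases, or 0.46%, overlap those of Glt8d1 on the other strand.

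Wdr12, Bop1 and Pes1 form the PeBoW complex, which is needed to process the large subunit precursor, and they did not move together. Wdr12 had 14.9, 15.6 and 19.8 CPM with 4-OI, against 8.78, 11.2 and 11.3 CPM with IFN-γ alone, a log2 fold change of 0.68 ± 0.15 (SE; edgeR adjusted p = 0.00623). Pes1 had 77.4, 84.4 and 86.2 CPM with 4-OI, against 72.5, 82.0 and 78.4 CPM with IFN-γ alone, and Bop1 had 17.5, 13.8 and 13.1 CPM with 4-OI, against 16.9, 18.6 and 17.7 CPM with IFN-γ alone. The groups of Pes1 and of Bop1 overlapped and neither passed, at log2 fold changes of 0.09 ± 0.09 and -0.27 ± 0.12 (SE). Bop1 was called lower without 4-OI replicate 1, its highest library with 4-OI.

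Brix1, a factor of early large subunit particles, had 29.8, 29.2 and 36.9 CPM with 4-OI, against 20.9, 27.1 and 25.7 CPM with IFN-γ alone, and was called higher just under the threshold (edgeR adjusted p = 0.0466). Its call was lost without any one of the libraries except IFN-γ replicate 2, and without IFN-γ replicate 1 the edgeR adjusted p was 0.0581. Rrs1, which helps place the 5S particle, and Noc3l had groups that did not overlap, 4-OI being higher, without passing the test (edgeR adjusted p = 0.0834 and 0.125). Nop2, Nop16 and Noc2l had overlapping groups and log2 fold changes between -0.04 and 0.16. For Noc2l, 15.6% of its exon bases overlap Samd11 on the other strand; the strand setting of the counting is not given in the sources used here.

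Ncl and Npm1, nucleolin and nucleophosmin, are among the most abundant nucleolar proteins. They were the members with the most counts in every library except IFN-γ replicate 1, in which Mxd1 had more, at 370.2 CPM. Ncl had 425, 440.0 and 537 CPM with 4-OI, against 335, 412 and 418 CPM with IFN-γ alone, and Npm1 had 416, 414 and 532 CPM with 4-OI, against 318, 401 and 396 CPM with IFN-γ alone. Every library with 4-OI was above every library with IFN-γ alone, but by a margin smaller than the spread within groups, with 4-OI replicate 3 high and IFN-γ replicate 1 low. Neither passed (edgeR adjusted p = 0.124 for Ncl and 0.120 for Npm1). Without both of those libraries the log2 fold change was 0.06 for each gene, against 0.27 for Ncl and 0.29 for Npm1 with all libraries. Ddx21, an RNA helicase that works with both RNA polymerase I and RNA polymerase II, was lower: it had 44.2, 41.8 and 43.6 CPM with 4-OI, against 61.8, 54.0 and 58.4 CPM with IFN-γ alone. Its log2 fold change was -0.43 ± 0.09 (SE; edgeR adjusted p = 0.00407).

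**Figure D2:**
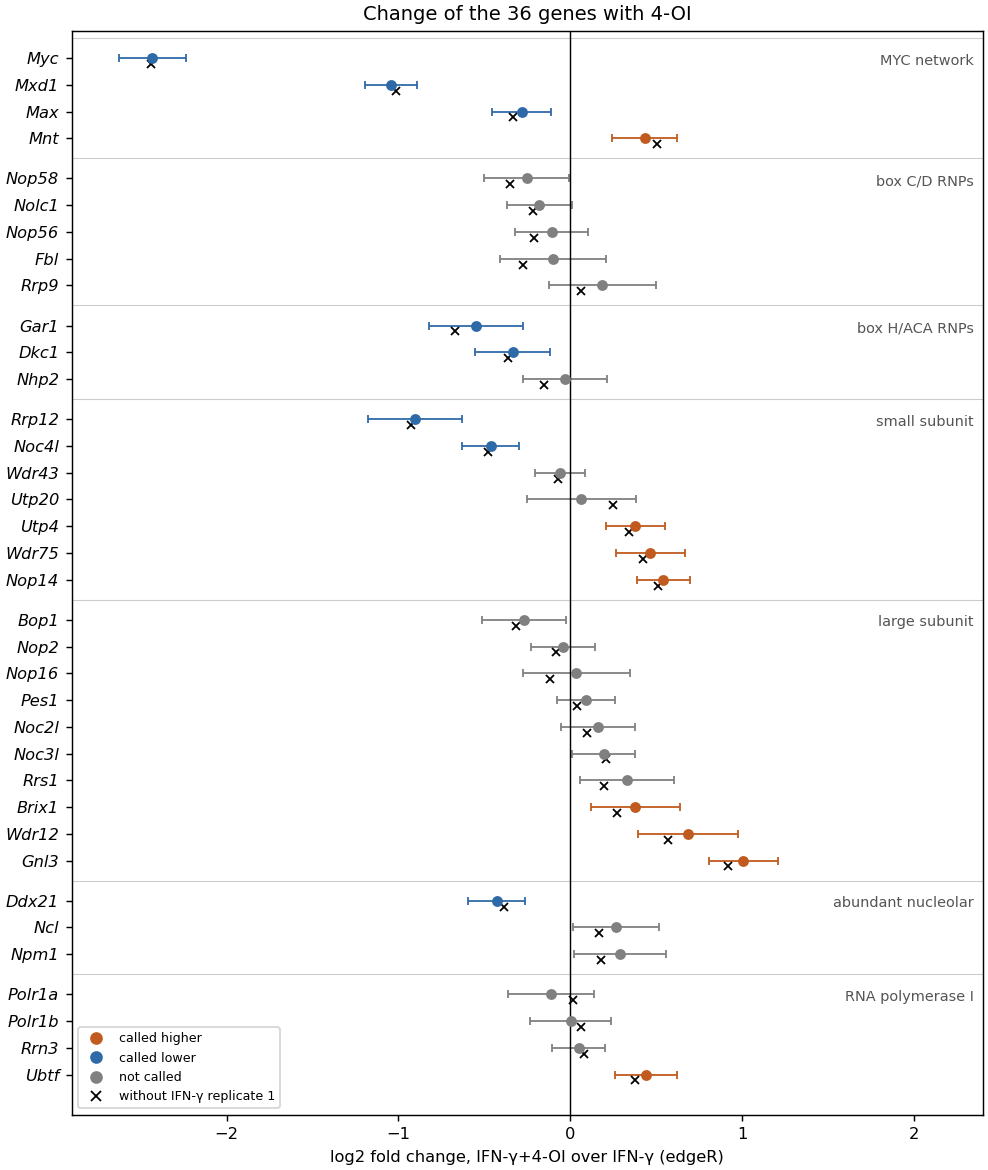
Log2 fold change of IFN-γ+4-OI over IFN-γ (x axis) for the 36 genes, grouped by role; points with bars are the edgeR estimates with all 6 libraries and 1.96 SE on either side, and crosses are the estimates without IFN-γ replicate 1. Myc at -2.43 and Mxd1 at -1.05 lie farthest to the left and Gnl3 at 1.01 farthest to the right. Most ribosome biogenesis genes lie near 0. A bar that misses 0 is not by itself a call, as for Bop1, which did not pass.

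Of the 16 calls, 8 were the same in all 18 settings tried for single genes: Myc, Mxd1, Noc4l, Rrp12 and Ddx21 lower and Nop14, Wdr12 and Gnl3 higher. The calls of Mnt, Wdr75, Utp4 and Ubtf were lost only when libraries were scaled by total counts alone. With that scaling the median over all tested genes was at -0.27 and that over the 36 genes at -0.24 (log2), and 3 were higher and 14 lower, against 12.3% and 38.9% of all tested genes. Among the 5 box C/D genes 3 were then lower and 0 higher. Among the 7 small subunit genes 1 was higher and 3 lower, and among the 10 large subunit genes 2 were higher and 2 lower. Every called gene kept its sign there, and the signs that changed were those of 8 genes without a call.

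IFN-γ replicate 1 is given separately here because it stood apart. It was the lowest library of its group for 25 of the 36 genes and the highest for 7. Its log2 CPM minus the mean of replicates 2 and 3 ranged from -0.58 for Fbl to 0.52 for Utp20, with a median of -0.11. This deviation rose with gene length: Spearman's rho was 0.623 across the 14011 tested genes and 0.526 across the 36, which share the libraries and are not independent. Over the shortest 25% of tested genes the median deviation was -0.32, and over the longest 25% it was 0.34. The members' median length was 3052.5 bases, in a range of 1112 to 10407, against 3602 bases over tested genes. Its summed level of 6 stromal marker genes was 40.6 CPM, against 4.18 and 5.05 CPM in the other libraries with IFN-γ alone and 1.19 to 2.01 CPM with 4-OI; the part of stromal RNA in the results was not tested.

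Without IFN-γ replicate 1, 7 of the 36 genes were higher and 11 lower with 4-OI, against 26.4% and 28.2% of all genes tested then. All 8 lower genes kept their call, and Fbl, Nop56 and Nop58 joined them; Brix1 left the higher genes. With a correction of each library for gene length, which was added after the data had been seen, 10 were higher and 9 lower, against backgrounds of 28.7% and 28.1%. That correction kept all 16 calls and added Noc3l and Rrs1 as higher and Nop58 as lower. Without both IFN-γ replicate 1 and 4-OI replicate 3, 11 were higher and 14 lower, against 32.7% and 33.3% of all genes tested then. Without 4-OI replicate 2, Max, Dkc1 and Gar1 lost their calls and 5 genes were lower, against 20% of all genes tested then.

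**Figure D3:**
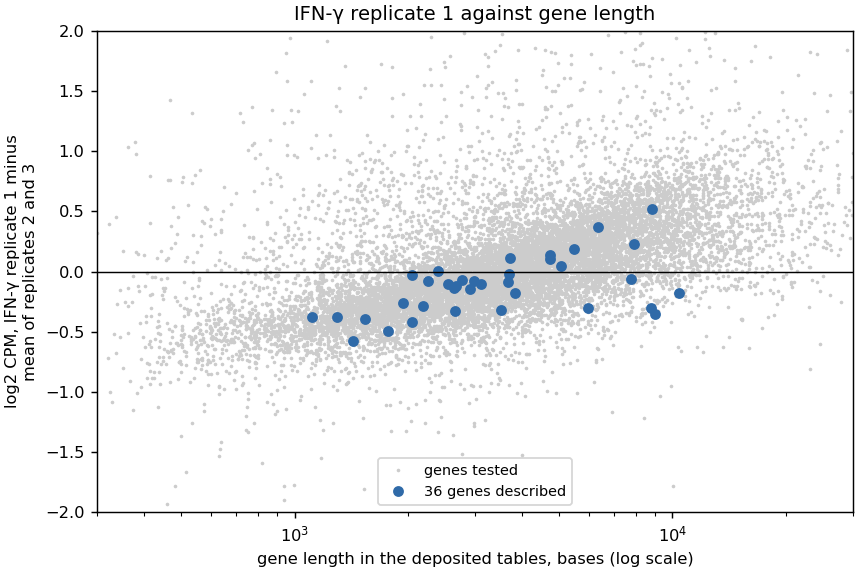
Log2 CPM of IFN-γ replicate 1 minus the mean of replicates 2 and 3 (y axis) against gene length in the deposited tables (x axis, log scale) for all tested genes (grey) and the 36 described (blue); 153 tested genes lie outside the drawn limits. Short genes lie mostly below 0 and long genes above it, with Fbl lowest at -0.58 and Utp20 highest at 0.52 among the 36.

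**Figure D4:**
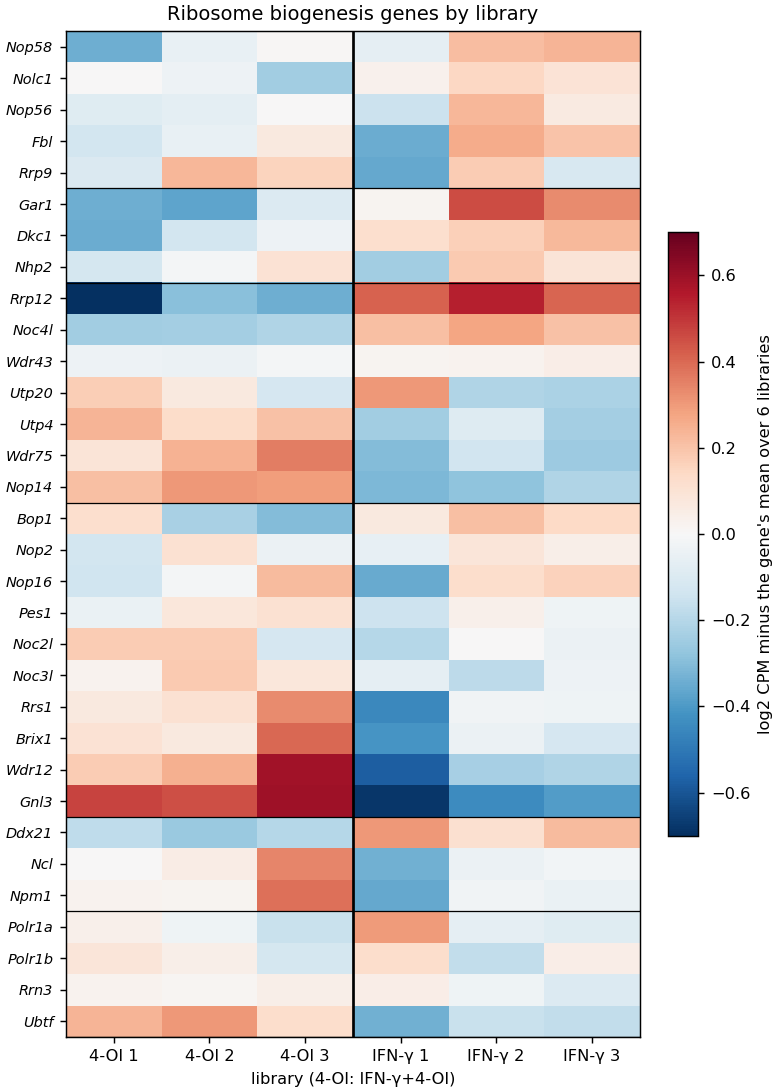
Log2 CPM of the 32 ribosome biogenesis genes in each library (columns) minus the gene's mean over the 6 libraries, in the order of the plot of fold changes; red is above the mean, blue below, and 1 value lies past the colour limit of 0.7. Rows such as Gnl3 and Rrp12 split by group, while in rows such as Fbl and Nop16 the column of IFN-γ replicate 1 differs from its own group.

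Levels of different genes were compared per length, in the deposited TPM, a unit scaled for gene length, and only within a group, since TPM were not TMM-scaled. Npm1 was the highest of the 36 in both groups, with 226 ± 12.0 TPM with 4-OI and 242 ± 4.99 TPM with IFN-γ alone (SD, n = 3 each). Myc stood at rank 29 of 36 with 4-OI, at 5.54 ± 0.977 TPM, and at rank 8 with IFN-γ alone, at 38.8 ± 4.51 TPM. Gnl3 stood at rank 5 with 4-OI, at 52.5 ± 2.09 TPM, and at rank 9 with IFN-γ alone, at 34.0 ± 1.18 TPM. Rrp12 was the lowest in both groups, with 0.939 ± 0.151 TPM with 4-OI and 2.31 ± 0.217 TPM with IFN-γ alone. Of the 35 pairs of neighbours in the order, the libraries of 9 pairs did not overlap in each group. Among them were Npm1 above Ncl, and Noc4l above Myc, with 4-OI, and Pes1 above Myc, and Myc above Gnl3, with IFN-γ alone. The remaining neighbours did not differ beyond the spread of their libraries.

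Lists of other assembly factors held more genes called higher than lower, except when libraries were scaled by total counts alone. Of 40 other small subunit factors, 11 were higher and 2 lower with 4-OI, with a median log2 fold change of 0.14. Pwp2 averaged 18.7 ± 1.28 CPM with 4-OI and 11.8 ± 0.563 CPM with IFN-γ alone (SD, n = 3 each; edgeR adjusted p = 0.000746), and Wdr3 averaged 37.5 ± 1.11 CPM with 4-OI and 25.9 ± 0.480 CPM with IFN-γ alone (SD, n = 3 each; edgeR adjusted p = 0.000775). Fcf1, which encodes a nuclease-like factor, was 1.82-fold higher. Of 43 other large subunit factors, 12 were higher and 3 lower, with a median of 0.19. Rpf1 was 1.56-fold higher, and Rrp1b and Ddx24 were 1.65-fold and 1.33-fold lower. The shares called higher, 27.5% and 27.9%, lay near the 22.7% of all tested genes, and the shares called lower, 5% and 6.98%, lay below their 25.4%; no test was made of these lists.

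These counts depended on single libraries. For the small subunit list 7, 6 and 7 genes were higher without 4-OI replicate 1, without 4-OI replicate 2 and without IFN-γ replicate 3, and 4 were lower without IFN-γ replicate 1. For the large subunit list 5, 4 and 7 were higher without 4-OI replicate 1, 2 and 3, and 4 without IFN-γ replicate 3. Scaled by total counts alone, the small subunit list had 4 higher and 10 lower genes, and the large subunit list 1 higher and 7 lower. Of 17 other genes of RNA polymerase I, 3 were higher (Polr2h, a subunit it shares with other polymerases, 1.91-fold, Taf1c, 1.49-fold, and Twistnb, 1.24-fold) and 1 was lower, Taf1b. Taf1b was chosen after its value was seen, and that lower count was 0 without any single library except IFN-γ replicate 1, without which it was 3. Scaled by total counts alone, 1 of the 17 was higher and 5 were lower. With TMM scaling 17.6% of the 17 were higher and 5.88% lower, against 22.7% and 25.4% of all tested genes.

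Of 80 ribosomal protein genes, 1 was higher and 1 lower. That is 1.25% in each direction, against 22.7% of all tested genes higher and 25.4% lower. Rpl24 averaged 1083 ± 122 CPM with 4-OI and 786 ± 126 CPM with IFN-γ alone (SD, n = 3 each; edgeR adjusted p = 0.0287), and Rpl3 averaged 827 ± 52.8 CPM with 4-OI and 1089 ± 175 CPM with IFN-γ alone (SD, n = 3 each; edgeR adjusted p = 0.0382). Rpl28, the next by adjusted p, was 1.77-fold higher and did not pass, at under 2 CPM in every library. The summed level of the 80 genes was 58853, 60551 and 75209 CPM with 4-OI, against 47255, 69358 and 63596 CPM with IFN-γ alone, so the groups overlapped. Without IFN-γ replicate 1, 7 were lower, and without both it and 4-OI replicate 3, 37 were lower; the lower count was 0 without any other single library, and the higher count was 0 without 4-OI replicate 1 or 2 and 2 without IFN-γ replicate 2. Scaled by total counts alone, 7 were lower and 0 higher, and with the correction for gene length 4 were higher and 7 lower. Ribosomal protein genes have many processed copies, and how reads shared with copies were counted is not given in the sources used here.

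Of 35 other known MYC targets, 8 were higher and 7 lower, with a median log2 fold change of 0.01. Ccnd2, cyclin D2, had 62.3, 64.0 and 63.5 CPM with 4-OI, against 290.2, 205 and 232 CPM with IFN-γ alone, and fell 3.83-fold (edgeR adjusted p = 1.70e-05). Odc1, the first enzyme of polyamine synthesis, had 189, 192 and 193 CPM with 4-OI, against 87.1, 105 and 99.0 CPM with IFN-γ alone, and was 1.97-fold higher (edgeR adjusted p = 6.92e-05). Shmt2, a mitochondrial enzyme of the folate cycle, was 1.64-fold lower. The shares of the 35 targets called, 22.9% higher and 20% lower, lay near the background of 22.7% and 25.4%. Without 4-OI replicate 3, 5 were higher, and without IFN-γ replicate 1, 11 were lower; scaled by total counts alone, 4 were higher and 13 lower.

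**Figure D5:**
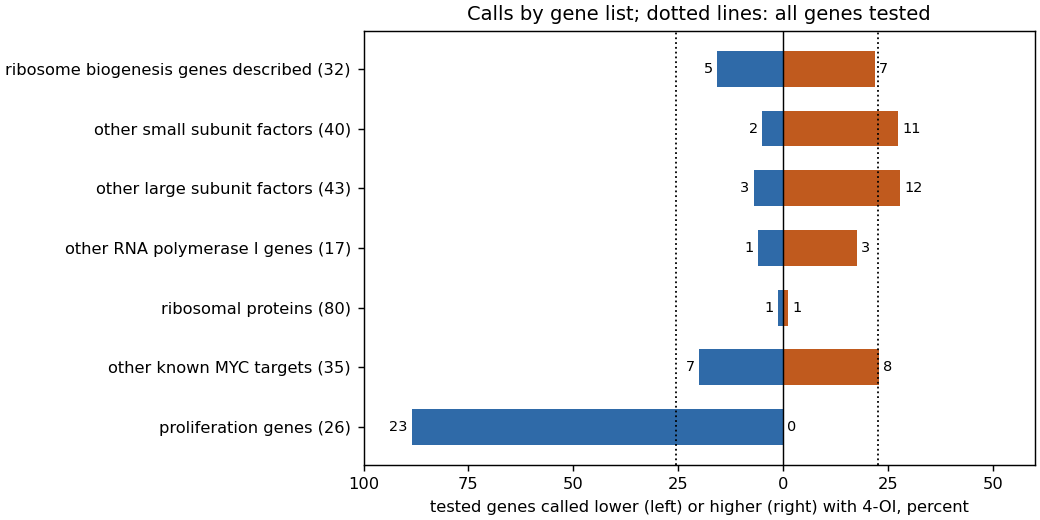
Share of tested genes called lower (left, blue) or higher (right, orange) with 4-OI in each gene list, in percent, with the number called beside each bar and the number tested in brackets; dotted lines are the shares over all tested genes, 25.4% lower and 22.7% higher. Proliferation genes are lower in 23 of 26 cases. Of the 32 ribosome biogenesis genes described, 5 are lower and 7 higher. Of other small subunit factors 2 of 40 are lower and 11 higher, and of other large subunit factors 3 of 43 and 12. Of other RNA polymerase I genes 1 of 17 is lower and 3 higher, and of ribosomal proteins 1 of 80 each way.

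Genes of cell division were lower, as Myc was. Of 26 proliferation genes, 23 were lower and 0 higher by edgeR, or 88.5% lower, against 25.4% of all tested genes. The count higher was 0 also at an unadjusted p under 0.05, by limma-voom and by DESeq2. The median log2 fold change of the 26 genes was -2.17. Their summed level was 346, 353 and 363 CPM with 4-OI, against 1107, 974 and 959.8 CPM with IFN-γ alone. Ccnb1, Ccna2 and Cdc20, which drive mitosis, were 5.38-fold, 4.89-fold and 5.88-fold lower. The summed level of the 32 ribosome biogenesis genes had opposite directions in the 2 units. It was 1669, 1707 and 1939 CPM with 4-OI, against 1392, 1641 and 1624 CPM with IFN-γ alone, and 863, 888 and 851 TPM with 4-OI, against 1020.1, 1002 and 1015 TPM with IFN-γ alone. Neither unit's groups overlapped. Ncl, Npm1 and Ddx21 made up 885, 896 and 1112 CPM of that sum with 4-OI, against 715, 867 and 872 CPM with IFN-γ alone, and Ncl and Npm1 did not pass the test. TPM were not TMM-scaled, while CPM were. The TMM factors were 0.938, 0.945 and 0.861 with 4-OI, against 1.13, 1.07 and 1.09 with IFN-γ alone. The part of this scaling in the opposite directions was not tested. The part of a change in dividing cells in the fall of Myc was not tested.

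Markers of cell types also differed between the groups. The shares over all tested genes were 22.7% higher and 25.4% lower with 4-OI. Of 13 tested markers of conventional dendritic cells 10 were lower and 1 higher with 4-OI, and all 14 listed had counts, with summed levels of 961 to 978 CPM with 4-OI and 1334 to 1369 CPM with IFN-γ alone. The titles of the samples call the cells macrophages and the other labels dendritic cells; 15 macrophage markers summed to 11752 to 12248 CPM with 4-OI and 6463 to 6663 CPM with IFN-γ alone, with 5 higher and 3 lower, or 3 higher without 4-OI replicate 1 or 2 or without IFN-γ replicate 3. Of 6 tested mast cell and basophil markers all 6 were lower. The 10 listed summed to 90.0 to 98.1 CPM with 4-OI and 302 to 345 CPM with IFN-γ alone, with Mcpt4 at 0 in all libraries. Of 9 monocyte markers 6 were lower, and of 14 neutrophil markers 9 were lower and 2 higher, or 1 higher without 4-OI replicate 2 or 3 or without IFN-γ replicate 2. The B cell, T and NK cell and erythroid markers summed to at most 12.6 CPM in any library. Their part in the results on Myc and ribosome biogenesis was not tested.

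The 6 libraries held 19656368 to 29244717 counts. The first principal component of log2 CPM, with 79.5% of the variance, separated the groups. On the second, with 10.7%, IFN-γ replicate 1 lay at one end and IFN-γ replicates 2 and 3 at the other, and 4-OI replicate 3 lay apart from 4-OI replicates 1 and 2. A pair of rows that resemble ribosomal RNA held 1.03%, 0.210% and 2.28% of counts with 4-OI, against 0.135%, 0.153% and 0.192% with IFN-γ alone, and without them the calls of the 36 genes were the same in number, 8 higher and 8 lower. The labels do not say whether replicates are separate cultures or mice, so the p-values rest on a spread between libraries that may be technical.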

How the data were processed

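RNA of 6 libraries was compared, 3 from cells given IFN-γ and 4-OI and 3 from cells given IFN-γ alone, grouped by their titles. The authors deposited 1 table per library with whole-number counts per gene, per the file headers, and these counts were used as deposited. TPM were also deposited by the authors. Recomputed from the counts and gene lengths, 100% of values matched (relative tolerance 1e-06). TPM served to order levels between genes and to give the summed level of the 32 ribosome biogenesis genes beside the CPM. Alignment was with HISAT2 to mm10, per the submitters' processing notes; how reads were counted, and with which strand setting, is not given in the sources used here. None of the 36 genes shared a start or an end with the GRCm38 table, though 22 had the same span, so gene coordinates are those of the deposited tables, on an assembly that may differ from mm10. Promoters are RefSeq's on GRCm38.p6.

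Genes were kept by filterByExpr (minimum count 10), scaled by TMM factors and tested across all 14011 with edgeR 4.0.16 in R 4.3.3 (robust quasi-likelihood, Benjamini-Hochberg adjustment, 0.05). The SE is the absolute log2 fold change divided by the square root of the test's F statistic. Depth was 19656368 to 29244717 counts, at which 3 counts are 0.103 to 0.153 CPM; such a limit reflects counting error alone. Replicates differed beyond sampling noise in every pair (lowest chi-square per gene 4.29).

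The members and the gene lists were chosen with earlier results of these data known. All 36 genes are accounted for; of each other pathway list the 3 genes with the smallest adjusted p are named, and 5 genes most like Myc. No test of a list as a whole was made. Alternatives were RLE, upper quartile and total count scaling, no filter, at least 1 CPM in 3 libraries, limma-voom (limma 3.58.1), DESeq2 1.42.0, the replicate number as a block, leaving out each library, leaving out IFN-γ replicate 1 and 4-OI replicate 3 together, leaving out rows that resemble ribosomal RNA, and an adjusted p of 0.01. A correction for gene length, fitted per library as a smooth trend with span 0.5, and the fit without both of the rows that resemble ribosomal RNA were chosen after seeing the data. Of 345 listed symbols outside the 36 genes, 2 are not analysed here.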

Additional observations from a re-analysis of the deposited data

How the results depend on the processing

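Of 648 recomputed fold changes of single genes, 572 kept their direction and their side of the threshold, 24 lost a call, 25 gained one and 27 changed sign, all of genes not called with all libraries. With total counts alone, 3 members were higher and 14 lower, at a median of -0.24, and 1719 of all genes were higher and 5452 lower. Signs changed there for Nop16 (-0.22), Pes1 (-0.17), Utp20 (-0.19), Noc2l (-0.092), Noc3l (-0.065), Rrp9 (-0.068), Polr1b (-0.26) and Rrn3 (-0.21). At an adjusted p of 0.01, 5 members were lower and 2079 of all genes higher. Without both IFN-γ replicate 1 and 4-OI replicate 3, 14 members were lower, Nop16 was at -0.21 and Polr1a at 0.074. With the length correction Nop16 was at -0.021. Polr1b was at -0.0075 with upper quartile factors and at -0.0020 with at least 1 CPM in 3 libraries. Without single libraries, 7 to 8 members were higher and 5 to 11 lower. Log2 fold changes then ranged from -0.10 to 0.016 for Nop2, from -0.12 to 0.14 for Nop16, from -0.27 to 0.020 for Fbl, from -0.15 to 0.069 for Nhp2, from -0.0093 to 0.25 for Utp20, from -0.16 to 0.018 for Polr1a and from -0.070 to 0.069 for Polr1b. The cause was not tested. Each of the 36 genes had at least 62 counts in every library, and whether depth limited their calls was not tested.

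The replicate numbers are shared between the groups, but deviations from group means correlated by 0.26, -0.10 and 0.19 for the same numbers, so pairing is not shown. With the replicate block 11 members were higher and 9 lower, against 25.6% and 28% of all tested genes, which kept all 16 calls and added Ncl, Npm1 and Rrs1 as higher and Nop58 as lower. The 80 ribosomal protein genes had 10 higher and 3 lower with the block, against 1 and 1 without it, and the 17 other RNA polymerase I genes 4 and 0, against 3 and 1.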
